A study of Arabidopsis thaliana with 18 samples.

Results

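The genes described here are the named members of 5 families of plant transcription factors, WRKY, MYB, bHLH, NAC and ERF, in roots of Arabidopsis thaliana. They were taken from the array annotation by symbol: a probe set naming a single gene whose symbol, after dropping a leading AT, begins with WRKY, MYB, BHLH, NAC, ANAC or ERF and a number, without WRKY53 and BHLH101, and with the brightest probe set kept per gene. The rule found 10 genes among the 13356 genes that have a single-gene probe set in that annotation. They are WRKY6, WRKY20, WRKY22, WRKY42 and WRKY47, the bHLH genes bHLH34, bHLH104, bHLH115 and bHLH121, and NAC014. No MYB or ERF gene met the rule, so these families are not described, and the NAC family rests on 1 gene. Each of the 10 genes had 1 probe set, and none was removed by a filter.

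The study compared 3 genotypes, each with the root-colonizing bacterium Pseudomonas fluorescens WCS417 and without it, to learn how the transcription factor MYB72 shapes the response of roots to the bacterium. The genotypes were oxMYB72, which carries FLAG-tagged MYB72 under the constitutive viral 35S promoter and also carries the myb72-2 mutation, the mutant myb72-2 in the Col-0 background, and the wild type Col-0. MYB72 has no named probe set in the annotation used, so its own level, which would check the genotypes, was not analysed here. All seedlings were 19 days old and grew on the same agar medium with 50 μM Fe(III)EDTA. WCS417 roots had received 10 μl of bacterial suspension at 17 days, 2 days before sampling, and control roots were untreated. Each of the 6 groups has 3 arrays, described as biological replicates, and the labels do not say whether roots were pooled or how many independent transgenic lines oxMYB72 stands for. The p-values below therefore reflect how far these samples spread, and some of that spread may be technical.

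WRKY proteins bind W-box elements in promoters and are known above all as regulators of plant immunity. WRKY22 acts below a MAP kinase cascade that is switched on when flagellin, a bacterial protein, is perceived. WRKY6 and WRKY42 repress PHO1, which encodes a phosphate exporter that loads phosphate into the root xylem. The bHLH members belong to the machinery that senses iron supply: bHLH34, bHLH104 and bHLH115, together with ILR3 (bHLH105), are closely related activators of the iron deficiency response, and bHLH121 works as their partner. WCS417 is known to switch on iron deficiency genes in roots, and MYB72 is itself one of the factors of that response. NAC proteins are a large family of plant-specific transcription factors with roles in development and stress.

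The values are RMA expression values on the log2 scale and ranged from 2.42 to 14.63 over all arrays. Within groups, the correlation of 2 replicate arrays over probe sets was 0.9913 to 0.9977. Of the 17 root markers listed EXPA7, a root hair expansin, and PYK10, a root beta-glucosidase, were measured, at 7.76 to 9.19 and 13.4 to 13.8. With WCS417 EXPA7 rose by 0.48 ± 0.09 on average (limma adjusted p = 0.000222), while PYK10 was not called (-0.1 ± 0.06, adjusted p = 0.159). The summed linear level of this pair was 12380 to 14183 in oxMYB72 WCS417 roots against 13043 to 14218 in the controls, 11391 to 13503 against 13361 to 14583 in myb72-2, and 12671 to 13762 against 13200 to 14461 in Col-0. Most of this sum is PYK10, the far brighter gene, so the sum does not show the rise of EXPA7. None of the 11 xylem and 5 phloem markers listed was measured. Of the 20 green tissue markers listed LHCB4.1, LHCB4.2 and RCA were measured. All of them, 3 of 3, fell with WCS417 averaged over the genotypes, where 19.5% of all probe sets were called lower. The summed level of these 3 green tissue markers on the linear scale was 343 to 406 in oxMYB72 WCS417 roots against 540 to 643 in oxMYB72 controls. It was 302 to 383 in myb72-2 WCS417 roots against 770 to 817 in the controls, and 384 to 417 in Col-0 WCS417 roots against 736 to 886 in the controls. The 3′ minus 5′ difference of the actin probe sets, a sign of RNA quality, was larger with WCS417 by 0.1 on average and that of GAPDH by 0.11. The EXPA7, green tissue and mean 3′ minus 5′ values moved with the bacterial treatment. For 3′ minus 5′ this was not tested, and in myb72-2 the ranges of both transcripts overlapped between the treatments. GAPDH there was -0.15 to 0.01 with WCS417 against -0.16 to -0.02 without. Actin also overlapped in Col-0, at 1.23 to 1.39 against 1.1 to 1.34, while GAPDH in Col-0 and both transcripts in oxMYB72 did not. In control roots limma also called 2 of the 3 green tissue markers lower in oxMYB72, against myb72-2 and against Col-0. The median difference of the 3 markers was -0.44 from myb72-2 and -0.45 from Col-0, where 6.81% and 7.41% of all probe sets were called. The part of all these values in the results below, on WCS417 and between genotypes, was not tested. In whole roots, fewer cells of a type and less RNA per cell cannot be told apart.

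Colonization by WCS417 changed 6 of the 10 genes, 3 upward and 3 downward, when its effect was averaged over the 3 genotypes. WRKY22, bHLH34 and WRKY42 rose, and bHLH121, NAC014 and bHLH104 fell. The changes were small, from 1.26-fold higher for WRKY42 to 1.55-fold lower for bHLH121. A gene was called at an adjusted p under 0.05 from limma, with Benjamini-Hochberg adjustment over all 22746 probe sets. Of all probe sets 37.6% were called in this average, 18.1% higher and 19.5% lower. With only 10 genes, their count of 6 was not tested against that share. The median effect was -0.08 over the 10 genes and 0.02 over all probe sets. The median size of the effect regardless of direction was 0.34 over the 10 genes and 0.13 over all probe sets. No call in this average was lost without any 1 of the 18 arrays. Of the 10 genes 8 had an effect of the same sign in all 3 genotypes, as did 59.1% of all probe sets. WRKY22 and bHLH121 were called in each genotype, while 8.05% of all probe sets were called in the same direction in all 3.

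The immune regulator WRKY22 rose in every genotype, at values below the array medians of 6.29 to 6.41. Its values in oxMYB72 WCS417 roots were 5.05, 5.35 and 4.79, against 4.29, 4.31 and 4.39 in oxMYB72 control roots. In myb72-2 they were 5.17, 5.18 and 4.84 with WCS417 and 4.7, 4.65 and 4.6 without it. Col-0 roots had 5, 4.9 and 4.91 with WCS417, against 4.62, 4.45 and 4.55 without. All 9 WCS417 arrays, the lowest at 4.79, lay above all 9 control arrays, the highest at 4.7. Such a complete separation of 9 from 9 arrays was found for 7.55% of all probe sets. Separation within 1 genotype, of 3 from 3 arrays, was common, at 35.1% of probe sets in oxMYB72, 33.2% in myb72-2 and 32% in Col-0. The rise averaged 0.52 ± 0.07 (log2 difference ± SE, 1.43-fold, adjusted p = 4.04e-06, higher in 9 of 9 arrays), and its percentile among all probe sets was 96.4. The estimate was largest in oxMYB72, at 0.73 ± 0.12, against 0.41 ± 0.12 in myb72-2 and 0.4 ± 0.12 in Col-0. That the effect differs between genotypes did not pass the test: the effect in oxMYB72 minus that in myb72-2 was 0.32 (95% interval -0.03 to 0.67, limma adjusted p = 0.464), and minus that in Col-0 it was 0.33 (-0.02 to 0.69, adjusted p = 0.608).

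WRKY42, which acts on phosphate transport genes, also rose on average, and its probe set was among the dimmest 30% of all. In oxMYB72 roots it stood at 3.99, 3.78 and 3.66 with WCS417, against 3.43, 3.36 and 3.38 without. The myb72-2 roots had 3.89, 3.95 and 3.61 with WCS417 and 3.47, 3.76 and 3.42 without, so that 1 control array lay inside the WCS417 range. Col-0 roots had 3.85, 4.05 and 3.72 with WCS417, against 3.58, 3.46 and 3.61 without. The treatments did not overlap in oxMYB72 or Col-0. The mean rise was 0.34 ± 0.07 (adjusted p = 0.000565), with 0.42 in oxMYB72, 0.27 in myb72-2 and 0.32 in Col-0. Within a genotype the call was passed in oxMYB72, whereas the effects in myb72-2 (adjusted p = 0.125) and Col-0 (adjusted p = 0.0798) were not called. Without WCS417 replicate 3 it was called in myb72-2 too (0.37, limma adjusted p = 0.0398).

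The other WRKY genes were not called in any genotype or on average. WRKY6, a regulator of senescence, defence and phosphate export, lay between 8.33 and 8.74 with WCS417 and between 8.21 and 8.57 without, with a mean effect of 0.07 (95% interval -0.05 to 0.2). WRKY20 lay between 6.83 and 7.61 with WCS417 and between 7.13 and 7.42 without, with a mean effect of -0.04 (-0.19 to 0.12). Its estimates were 0.2 ± 0.13 in oxMYB72, -0.26 ± 0.13 in myb72-2 and -0.05 ± 0.13 in Col-0, and the oxMYB72 WCS417 arrays (7.36, 7.41 and 7.36) all lay above the oxMYB72 controls (7.16, 7.23 and 7.13). With 1 array left out the estimate ran from -0.39 to -0.13 in myb72-2 and from -0.21 to 0.1 in Col-0, so its sign in Col-0 was not stable, and without WCS417 replicate 3 it was called in myb72-2 (-0.39, limma adjusted p = 0.0451). The difference between its effects in oxMYB72 and myb72-2 was 0.47 ± 0.19 (unadjusted p = 0.0211, limma adjusted p = 0.267), which did not pass the test. WRKY47 lay between 5.75 and 6.38 with WCS417 and between 6.19 and 6.57 without, and its mean effect of -0.17 (-0.32 to -0.02) was not called (adjusted p = 0.076).

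**Figure D1:**
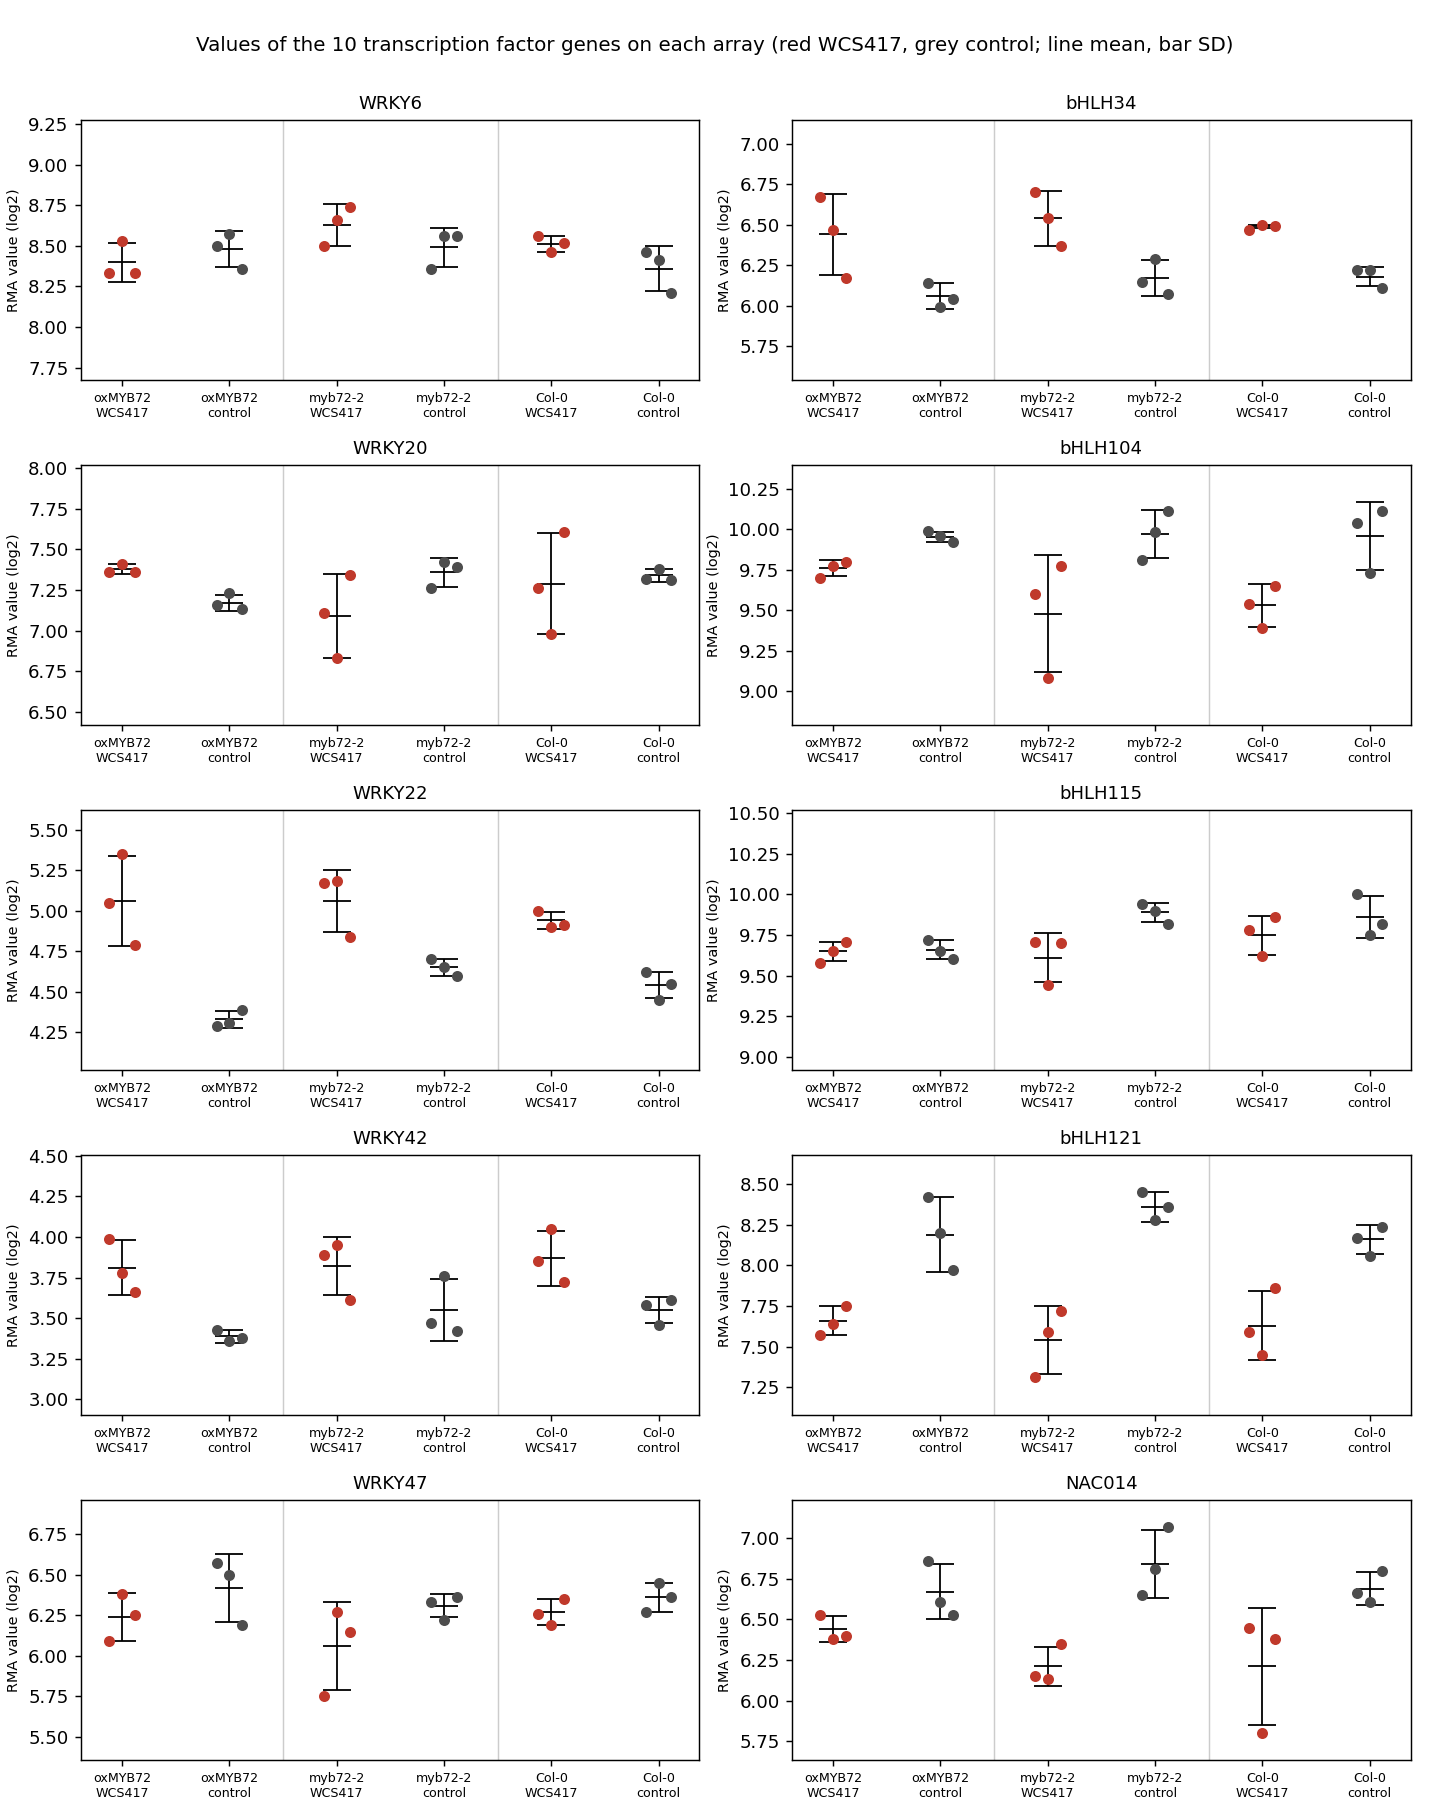
RMA value (log2) of each of the 10 genes on each array, for WCS417 (red) and control (grey) roots of oxMYB72, myb72-2 and Col-0; points are arrays, the short line is the mean and the bar the SD (n = 3), and every panel spans the same range. WRKY22 lies higher and bHLH121 lower in all 9 WCS417 arrays than in all 9 control arrays, while WRKY6 and WRKY47 overlap.

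Among the iron-related bHLH genes, bHLH121 and bHLH104 fell and bHLH34 rose. The largest fall of the 10 genes was that of bHLH121, the partner of the other bHLH factors. In oxMYB72 roots its values were 7.57, 7.64 and 7.75 with WCS417, against 8.42, 8.2 and 7.97 without. The myb72-2 roots had 7.31, 7.59 and 7.72 with WCS417 and 8.45, 8.28 and 8.36 without. In Col-0 they were 7.59, 7.45 and 7.86 with WCS417, against 8.17, 8.06 and 8.24 without. The 9 WCS417 arrays reached at most 7.86 and the 9 control arrays at least 7.97, so the treatments did not overlap in any genotype or across them. The mean effect was -0.63 ± 0.07 (1.55-fold lower, limma adjusted p = 7.47e-07, lower in 9 of 9 arrays), at percentile 2.7 of all probe sets. It fell by 0.54 in oxMYB72, by 0.82 in myb72-2 and by 0.52 in Col-0, and it was called in each. The effect in myb72-2 minus that in Col-0 was -0.3 (95% interval -0.68 to 0.08, limma adjusted p = 1), and that in oxMYB72 minus that in myb72-2 was 0.29 (-0.09 to 0.66, adjusted p = 0.564), neither of which passed the test.

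The activator bHLH104 had values of 9.7, 9.77 and 9.8 in oxMYB72 WCS417 roots, against 9.99, 9.96 and 9.92 in oxMYB72 controls. In myb72-2 it stood at 9.6, 9.08 and 9.77 with WCS417 and at 9.81, 9.98 and 10.11 without. Col-0 roots had 9.54, 9.39 and 9.65, against 10.04, 9.73 and 10.11. Within each genotype all WCS417 arrays lay below all control arrays, and replicate 2 of the myb72-2 WCS417 group was the lowest of all. The mean effect was -0.37 ± 0.08 (limma adjusted p = 0.000938), with -0.2 in oxMYB72, -0.49 in myb72-2 and -0.43 in Col-0. The effect in oxMYB72 was not called (adjusted p = 0.388).

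In the opposite direction, bHLH34 was higher in each genotype without overlap between the treatments. Its values were 6.67, 6.47 and 6.17 in oxMYB72 WCS417 roots and 6.14, 5.99 and 6.04 in oxMYB72 controls. The myb72-2 roots had 6.7, 6.54 and 6.37 with WCS417, against 6.15, 6.29 and 6.07 without. Col-0 roots had 6.47, 6.5 and 6.49 with WCS417 and 6.22, 6.22 and 6.11 without, the tightest WCS417 group of the 3 (SD 0.01). The mean rise was 0.35 ± 0.07 (limma adjusted p = 0.000234), with 0.38 in oxMYB72, 0.37 in myb72-2 and 0.3 in Col-0. The effect in Col-0 was not called (adjusted p = 0.087), where 32% of all probe sets had arrays that did not overlap, but it was called with only the arrays compared (limma adjusted p = 0.0455). As a description, with the pairs chosen for their opposite effects, within single arrays bHLH34 minus bHLH121 shifted upward with WCS417 by 0.92 in oxMYB72, 1.19 in myb72-2 and 0.82 in Col-0. For bHLH34 minus bHLH104 the shifts were 0.58, 0.86 and 0.73 in the same genotypes.

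The remaining activator, bHLH115, was not called. It lay between 9.44 and 9.86 with WCS417 and between 9.6 and 10 without, with a mean effect of -0.13 (95% interval -0.25 to -0.01, limma adjusted p = 0.0949). The estimate was -0.01 in oxMYB72, -0.27 in myb72-2 and -0.1 in Col-0. In myb72-2 the arrays did not overlap, at 9.71, 9.44 and 9.7 with WCS417 against 9.94, 9.9 and 9.82 without (adjusted p = 0.061). There the gene was called with a variance trend and robust moderation (limma adjusted p = 0.0375) or without the dimmest 30% of probe sets (adjusted p = 0.0421). ILR3, the remaining gene of this group of activators, is measured under that symbol and so is not among the 10, and it fell by 0.29 ± 0.05 on average (limma adjusted p = 0.000149), with -0.18 in oxMYB72, -0.43 in myb72-2 and -0.26 in Col-0. It was called in myb72-2 (limma adjusted p = 0.00172) and not in oxMYB72 (adjusted p = 0.185) or Col-0 (adjusted p = 0.0579). Of the 11 iron-related bHLH genes listed, 5 were measured: bHLH34, bHLH104, bHLH115, bHLH121 and ILR3. Of these 1 rose and 3 fell on average, against calls upward for 18.1% and downward for 19.5% of all probe sets. They are the activators and their partner only, and the other listed genes have no value here. The median effect was -0.29 over the 5 genes and 0.02 over all probe sets. The list was put together with earlier results of these data known, so its counts are not independent evidence of a direction.

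NAC014 was lower with WCS417. In oxMYB72 it stood at 6.53, 6.38 and 6.4 with WCS417, against 6.86, 6.61 and 6.53 without. In myb72-2 the values were 6.15, 6.13 and 6.35 with WCS417 and 6.65, 6.81 and 7.07 without. Col-0 roots had 6.45, 5.8 and 6.38 with WCS417, against 6.66, 6.61 and 6.8 without. The 9 WCS417 arrays lay below the 9 controls, but by only 0.0016 at the closest pair of arrays, both of oxMYB72, so that the separation is no wider than rounding. Its mean effect was -0.45 ± 0.08 (1.36-fold lower, limma adjusted p = 0.000207), with -0.23 in oxMYB72, which was not called (adjusted p = 0.32), -0.63 in myb72-2 and -0.48 in Col-0.

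**Figure D2:**
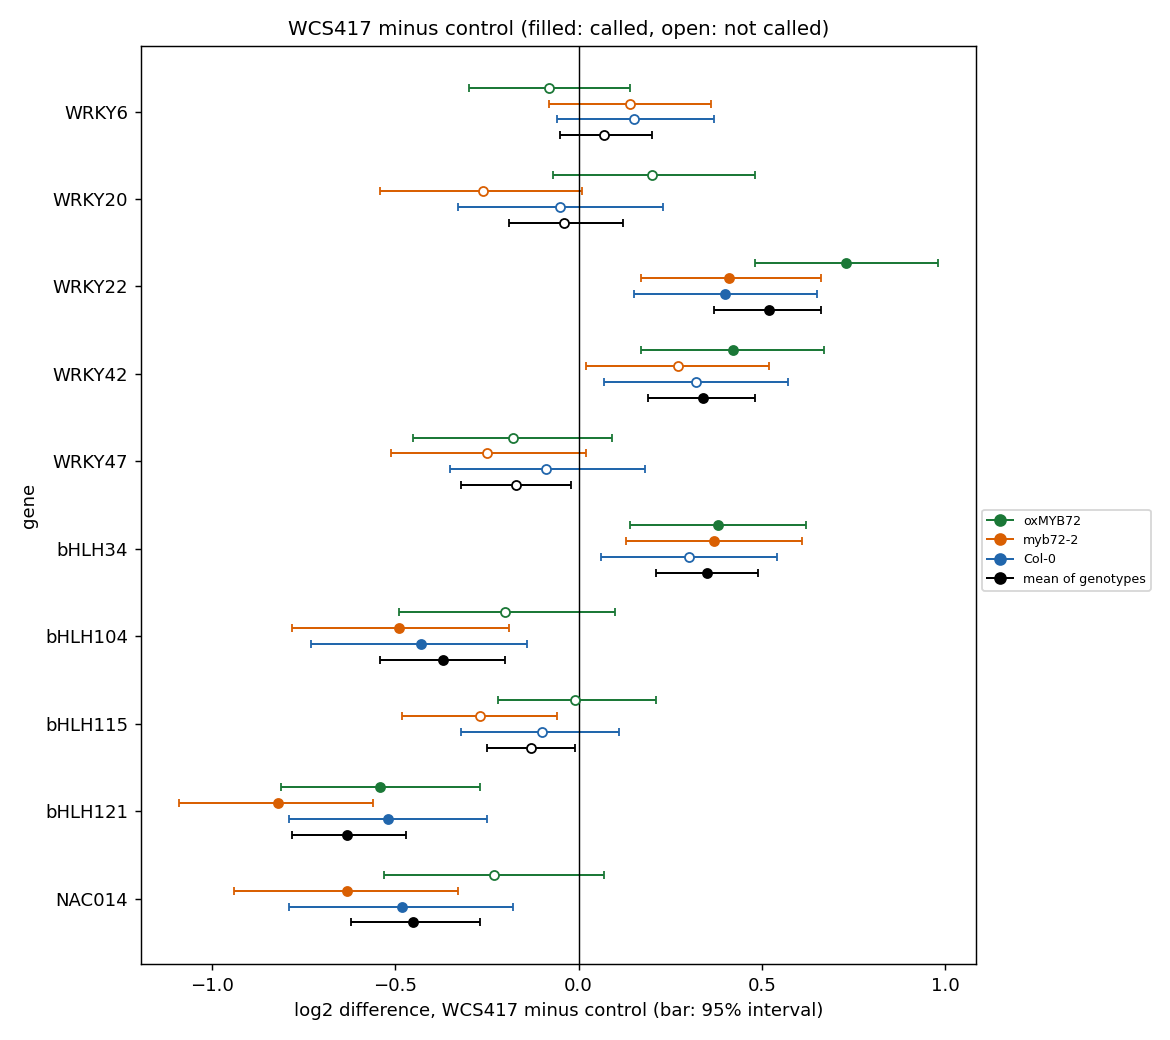
Log2 difference of WCS417 minus control roots for the 10 genes in oxMYB72, myb72-2 and Col-0 and averaged over the 3 genotypes; bars are 95% intervals from limma, filled points were called and open points were not. The 6 called averages run from -0.63 for bHLH121 to 0.52 for WRKY22, and the intervals of the 3 genotypes overlap for every gene.

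Compared by family on this average, 2 of the 5 WRKY genes rose and none fell, with a median effect of 0.07. Of the 4 bHLH genes 1 rose and 2 fell, with a median of -0.25, and the single NAC gene fell. The order of the medians was the same in each genotype: for WRKY and bHLH they were 0.2 and -0.1 in oxMYB72, 0.14 and -0.38 in myb72-2 and 0.15 and -0.27 in Col-0. Each of these WRKY medians is the value of a gene that was not called, WRKY20 in oxMYB72 and WRKY6 in myb72-2 and Col-0. The difference between families was not tested, and with 5, 4 and 1 genes it describes these genes, not the families.

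Within single genotypes fewer of the 10 genes were called than on average, and most of those calls depended on single arrays. In oxMYB72 3 rose and 1 fell, where 19.3% of all probe sets were called (10.2% higher, 9.09% lower), and the count was 2 without control replicate 2 or WCS417 replicate 1. In myb72-2 2 rose and 3 fell, against 21.4% of all probe sets (8.52% higher, 12.9% lower), and the count was 2 without control replicate 3 or WCS417 replicate 2 and 3 without WCS417 replicate 1. In Col-0 1 rose and 3 fell, against 15.3% (6.38% higher, 8.96% lower). There the count was 2 without control replicate 1 or WCS417 replicate 1, 1 without control replicate 3 and 0 without WCS417 replicate 2. The calls of WRKY22 in oxMYB72, of bHLH121 in oxMYB72 and myb72-2, and of NAC014 in myb72-2 were passed without any 1 of the arrays compared. That of bHLH121 in Col-0 was lost without WCS417 replicate 2 (-0.43, limma adjusted p = 0.05). The other calls were less firm. WRKY42 lost its call in oxMYB72 without control replicate 2 (0.4) or WCS417 replicate 1 (0.33). In myb72-2 WRKY22 lost it without control replicate 3 (0.39) or WCS417 replicates 1 or 2 (0.36 each), and in Col-0 without any array but control replicate 1 (0.35 to 0.42). For bHLH34 the call ended in oxMYB72 without control replicates 2 (0.35) or 3 (0.37) or WCS417 replicates 1 (0.27) or 2 (0.37), and in myb72-2 without control replicates 1 (0.36) or 3 (0.32) or WCS417 replicates 1 (0.29) or 2 (0.37). For bHLH104 it ended in myb72-2 without control replicate 3 (-0.41) or WCS417 replicate 2 (-0.29), and in Col-0 without control replicates 1 (-0.39) or 3 (-0.36) or WCS417 replicates 1 (-0.44) or 2 (-0.37). The call of bHLH104 in Col-0 also ended after median centring (-0.42, limma adjusted p = 0.0542) or a further quantile normalization (-0.39, adjusted p = 0.0667), and its call in myb72-2, like those of bHLH34 in oxMYB72 and myb72-2, with only the arrays compared (limma adjusted p of 0.0763, 0.0669 and 0.0681). NAC014 lost its call in Col-0 without control replicates 1 (-0.5) or 3 (-0.43) or WCS417 replicate 2 (-0.28). Every one of these estimates kept its sign.

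**Figure D3:**
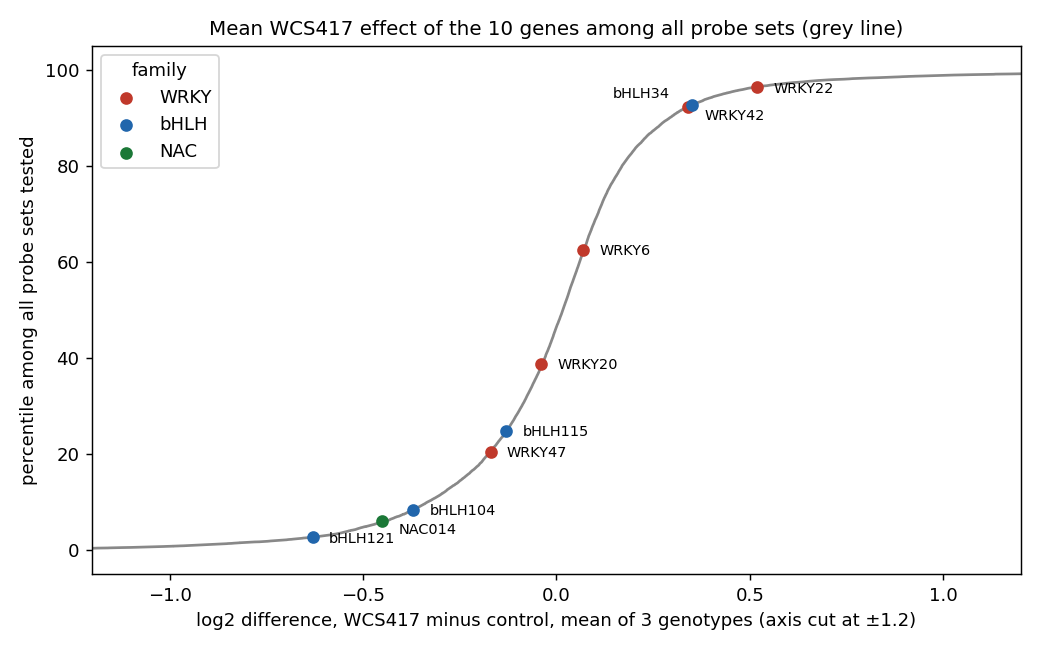
Percentile of the average WCS417 effect of each of the 10 genes (coloured by family) among all 22746 probe sets, whose cumulative distribution is the grey line; the horizontal axis is the log2 difference, WCS417 minus control. WRKY22 sits at percentile 96.4 and bHLH121 at 2.7, and WRKY6 and WRKY20 lie in the middle.

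Between genotypes, none of the 10 genes was called. In untreated roots of oxMYB72 against myb72-2 the limma fit called 0 of 10, where 6.81% of all probe sets were called, and before adjustment 2 genes had a p under 0.05. These were WRKY22 (-0.32, 95% interval -0.57 to -0.07, adjusted p = 0.139), with control arrays at 4.29, 4.31 and 4.39 in oxMYB72 against 4.7, 4.65 and 4.6 in myb72-2, and bHLH115 (-0.23, -0.44 to -0.02, adjusted p = 0.233). Neither set of arrays overlapped, nor did that of WRKY20 (-0.18). Thus 3 of the 10 genes had groups that did not overlap, as had 26.7% of all probe sets in this comparison. With only the 6 control arrays of oxMYB72 and myb72-2 in the fit, WRKY22 was called (-0.32 ± 0.09, limma adjusted p = 0.0401). No other alternative called it, and with all arrays of the comparison kept its estimates ran from -0.32 to -0.26. In WCS417 roots of oxMYB72 against myb72-2 limma again called 0 of 10, against 5.52% of all probe sets, with WRKY6 (-0.24, unadjusted p = 0.034) and WRKY20 (0.28, unadjusted p = 0.0449) under 0.05 before adjustment. The WRKY22 values of WCS417 roots were close in these genotypes, with means of 5.06 ± 0.28 in oxMYB72 and 5.06 ± 0.19 in myb72-2 (SD, n = 3).

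For myb72-2 against Col-0, differences of the 10 genes ran from -0.05 to 0.21 in control roots and from -0.21 to 0.13 in WCS417 roots. The limma fit called 0 of 10 in both treatments and left 0 below 0.05 before adjustment, where 0.0396% and 0.127% of all probe sets were called. The widest 95% intervals of the 10 genes reached 0.47 and 0.48 from zero. Against Col-0, oxMYB72 differed by -0.21 to 0.12 in control roots and by -0.12 to 0.23 in WCS417 roots, again with 0 of 10 called by limma and 0 below 0.05 before adjustment, while 7.41% and 4.26% of all probe sets were called. The 3 comparisons of WCS417 effects between genotypes called 0 of 10 each in limma. Before adjustment 1 gene, WRKY20, was under 0.05 in oxMYB72 minus myb72-2 and none in the other two, where 2.78%, 1.75% (oxMYB72 minus Col-0) and 0.0176% (myb72-2 minus Col-0) of all probe sets were called. The effect in oxMYB72 minus that in myb72-2 had a median of 0.28 over the 10 genes, against 0.05 over all probe sets. No single gene passed the test, and genes read on the same arrays are not independent. The control arrays enter this value too: in control roots the median of oxMYB72 minus myb72-2 was -0.16, against -0.04 over all probe sets.

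**Figure D4:**
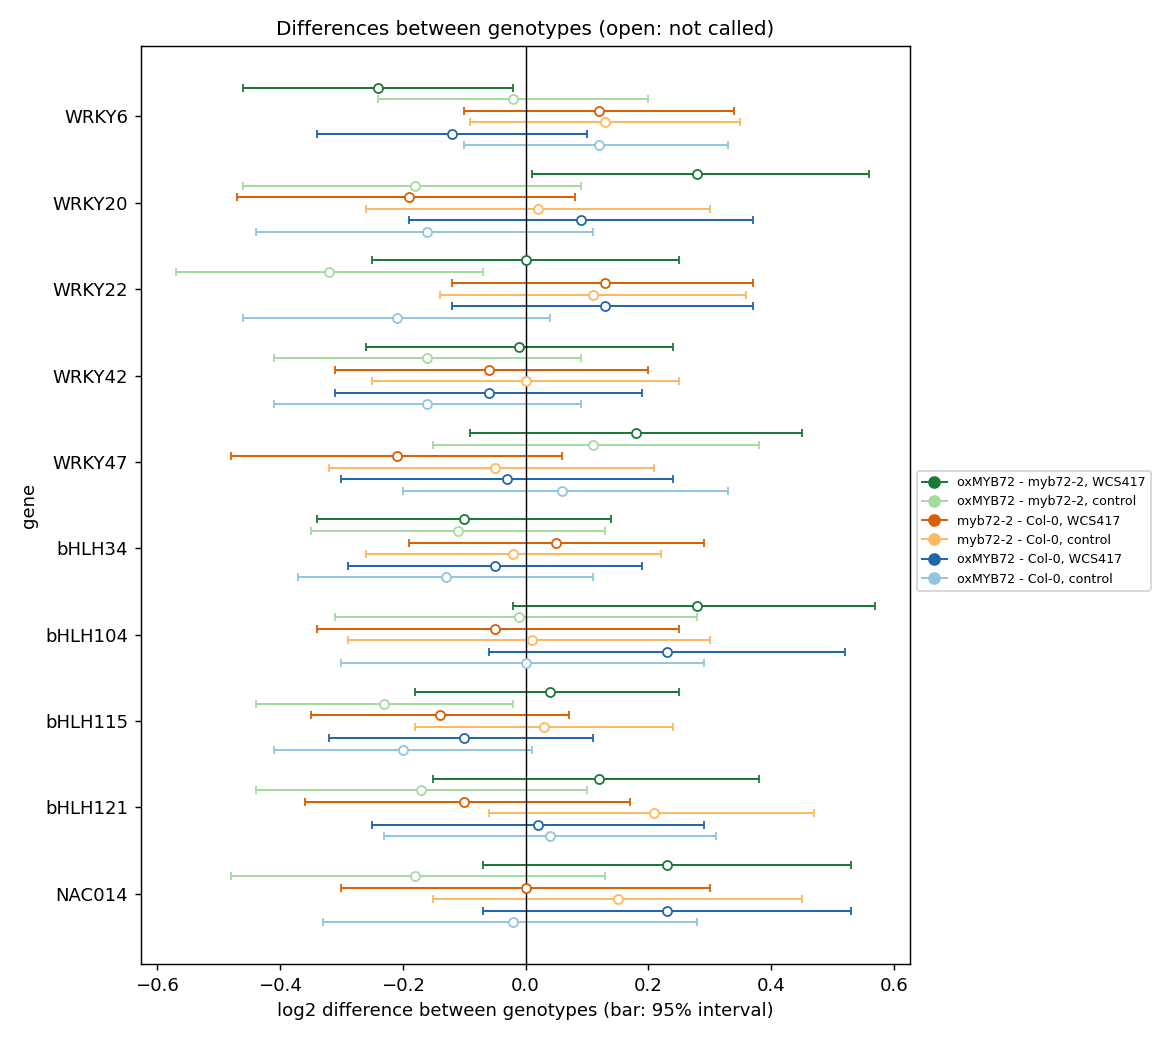
Log2 differences between genotypes for the 10 genes, in WCS417 and control roots, with 95% intervals from limma; all points are open because none was called. The differences run from -0.32 (WRKY22, control roots, oxMYB72 minus myb72-2) to 0.28.

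The patterns of the most affected gene of each family were set against genes of the other families over the 6 group means, which share their treatments and arrays. Genes of the same family were left out, and each gene was picked by its WCS417 effect, so the correlations largely restate the effects given above. WRKY22 was set against the 4 bHLH genes and NAC014, of which only bHLH34 had a mean effect above zero. It was most like bHLH34 (Pearson r = 0.96), followed by bHLH115 (-0.4). The pattern of bHLH121 was most like that of NAC014 (0.96), followed by WRKY47 (0.76) and WRKY20 (0.31). NAC014 was most like bHLH104 (0.97), followed by bHLH121 (0.96) and WRKY47 (0.71).

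Other regulators that act beside these families were few in the annotation used, and their counts stand beside the 37.6% of all probe sets called in this average, 18.1% higher and 19.5% lower. In the list of jasmonate signalling 2 of 30 genes were measured, and both fell on average: MYC3 by 0.42 ± 0.06 (limma adjusted p = 9.03e-06) and MYC4 by 0.32 ± 0.06 (adjusted p = 0.000224). Both encode bHLH factors that carry out jasmonate responses and bind MYB factors of glucosinolate synthesis. In ethylene signalling 2 of 17 were measured, of which EIN3, the factor that switches on ERF genes, fell by 0.24 ± 0.06 (limma adjusted p = 0.00195) and RTE1 was not called (0.13 ± 0.06). Of the defence output list, here mainly defensins and thionins, 7 of 32 genes were measured and limma called none, with 2 at an unadjusted p under 0.05 and a median effect of 0.07.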

How the data were processed

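RNA of 18 root samples was hybridised to Affymetrix ATH1 arrays, per the labels' protocols. The deposited values are RMA expression values, which the authors made per the submitters' processing notes, and their range is that of a log2 scale. No version of RMA is stated. RMA gives all arrays a like distribution, which hides any change common to most transcripts. Precision is limited by the number of arrays. Of 22810 probe sets, 64 controls were set aside and 22746 tested. The annotation named 1 gene for 13513 of the tested probe sets, several for 503 and none for 8730. All 10 genes matched a locus in a RefSeq table (TAIR10.1), used for names only.

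A single linear model with 6 group means was fitted to the 18 arrays in limma 3.58.1 under R 4.3.3, moderated with eBayes, and gave 13 two-sided comparisons. It was checked on simulated data. Errors after ± are SE unless given as SD. The genes, lists and alternatives were chosen with earlier results of these data known. The rule for named genes took called genes whose groups do not overlap, called genes of the average with 1 sign in all genotypes, any gene of the role lists and up to 3 called genes of each pathway list. The remaining members were named so that all 10 are accounted for. One entry of the flavonoid list was left out because its symbol belongs to a chitinase locus.

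Each alternative changed 1 choice: a further quantile normalization, centring arrays on their medians, robust moderation with a variance trend, fitting only the arrays of a comparison, leaving out the dimmest 30% of probe sets, a block for the replicate number, or leaving out 1 array. Replicate numbers were not shown to pair the arrays, since in no comparison was the correlation of deviations over 0.1 for every pair. Figures were drawn with matplotlib 3.10.9.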

Additional observations from a re-analysis of the deposited data

Results flagged for a closer look

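None of the 10 genes passed the test of a difference between genotypes in its response to WCS417. Among the genes of the lists beside them 5 did, by limma's test of the difference of the effects. They belong to lists of which 4 of 29 secondary wall genes, 4 of 89 factors of other families and 3 of 15 aliphatic glucosinolate genes were measured. No gene passed among those measured for flavonoid (4), defence output (7), jasmonate (2), ethylene signalling (2) and indole glucosinolate (1). Of all probe sets 2.78% were called in oxMYB72 minus myb72-2 and 1.75% in oxMYB72 minus Col-0. The lists were chosen with earlier results of these data known, so the count of 5 is not set against the 10 genes as evidence. STZ, a zinc finger repressor also known as ZAT10, responded in opposite directions: it fell by 0.46 in oxMYB72 and rose by 0.83 in myb72-2 and by 0.87 in Col-0. Its values were 6.97, 6.52 and 6.82 in oxMYB72 WCS417 roots against 7.48, 7.23 and 6.99 in oxMYB72 controls, 7.45, 7.83 and 7.68 with WCS417 against 6.6, 7.02 and 6.87 without in myb72-2, and 7.25, 7.86 and 7.51 with WCS417 against 6.57, 6.66 and 6.77 without in Col-0. The effect in oxMYB72 minus that in Col-0 was -1.34 ± 0.22 (limma adjusted p = 0.00101) and minus that in myb72-2 -1.29 ± 0.22 (adjusted p = 0.00136), and both were called without any 1 array. BZIP60, a factor of the unfolded protein response, had means of 8.79 ± 0.07 in oxMYB72 WCS417 roots against 9.08 ± 0.04 in the controls, and of 9.01 ± 0.1 against 8.77 ± 0.05 in myb72-2 (SD, n = 3). The effect in oxMYB72 minus that in myb72-2 was -0.53 ± 0.12 (limma adjusted p = 0.0163). That call held without any 1 array, with a highest adjusted p of 0.0465. The difference from Col-0 did not pass (-0.43 ± 0.12, limma adjusted p = 0.0851).

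The other genes with such a difference belong to phenylpropanoid and glucosinolate synthesis. CCOAMT, annotated as a methyltransferase of the lignin pathway, had 6.28, 6.19 and 6.24 in oxMYB72 WCS417 roots against 7.29, 6.31 and 5.41 in the widely spread controls. It rose by 1.86 in myb72-2 and by 2.02 in Col-0. Its effect in oxMYB72 was lower by limma's test, with -2.12 ± 0.41 against Col-0 (adjusted p = 0.00475) and -1.96 ± 0.41 against myb72-2 (adjusted p = 0.00749). HCT, a transferase of the same pathway, fell by 0.45 in oxMYB72, was not called in myb72-2 (0.19) and rose by 0.44 in Col-0. Its level stayed highest in oxMYB72, with means of 12.67 with WCS417 and 13.12 without. The means were 10.97 and 10.78 in myb72-2 and 11.09 and 10.65 in Col-0. Its effect in oxMYB72 minus that in Col-0 was -0.89 ± 0.16 (limma adjusted p = 0.00196) and minus that in myb72-2 -0.64 ± 0.16 (adjusted p = 0.0276). The difference from myb72-2 was lost without any 1 of 6 arrays: control replicates 2 or 3 or WCS417 replicate 2 of myb72-2, or control replicates 1 or 2 or WCS417 replicate 2 of oxMYB72, with estimates from -0.72 to -0.56 over all arrays left out. BCAT4, an enzyme of methionine chain elongation, rose by 0.93 in oxMYB72 and by 0.34 in myb72-2. The difference of 0.58 ± 0.15 (limma adjusted p = 0.0354) was lost without any 1 of 8 arrays, with estimates from 0.5 to 0.69 over all arrays left out. These were each oxMYB72 control replicate, oxMYB72 WCS417 replicates 1 and 2, myb72-2 control replicates 2 and 3 and myb72-2 WCS417 replicate 2. In Col-0 the gene rose by 0.63, and the effect in oxMYB72 minus that in Col-0 did not pass (0.3 ± 0.15, limma adjusted p = 0.596).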

How the results depend on the processing

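Over all 13 comparisons, the effects of the 10 genes were recomputed 1847 times under the alternatives. No called effect changed sign, 33 calls were lost and 8 were gained. For the average over genotypes the count of called genes was 5 without the dimmest 30% of probe sets, which removed WRKY42, and 6 to 7 with any 1 array left out; WRKY47 was gained without myb72-2 WCS417 replicate 2 or oxMYB72 control replicate 3 (-0.21 each). With 1 array left out the counts were 2 to 4 in oxMYB72, 2 to 7 in myb72-2 and 0 to 3 in Col-0. With only the arrays compared, 3 were called in myb72-2, and 1, WRKY22, in oxMYB72 against myb72-2 control roots, where leaving out an array gave 0. Under median centring, the share higher among all probe sets called in oxMYB72 was 43.1% instead of 52.9%, and the calls of the 10 genes there did not change direction. Replicate numbers were not shown to pair arrays: of 27 same-numbered pairs 8 had deviations correlated above 0.1, and in no comparison did all 3. In myb72-2 against Col-0 control roots, each of 6 arrays correlated best with its own number, a hint from the data and not the design. With the replicate block the counts were 4 in oxMYB72, 5 in myb72-2, 4 in Col-0 and 6 on average. Averaging the probe sets of a gene was not run, since each gene had 1.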

Other observations

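Genes of pathways that WRKY, MYB and bHLH factors are known to control were measured in small numbers. BCAT4 rose by 0.63 ± 0.06 averaged over the genotypes (limma adjusted p = 4.03e-08), 1 of 3 measured genes of the aliphatic glucosinolate list. UGT74B1, a glucosyltransferase of glucosinolate synthesis and the single measured gene of the indole list, rose by 0.32 ± 0.07 (limma adjusted p = 0.000518). Of 4 measured flavonoid genes, UGT78D2, a flavonoid glucosyltransferase, rose by 0.4 ± 0.06 (limma adjusted p = 2.78e-05) and the others were not called. Its effect was 0.09 in oxMYB72, which was not called, and 0.55 in both myb72-2 and Col-0, and the differences between these effects did not pass (limma adjusted p of 0.14 and 0.198). Of 4 secondary wall genes, CCOAMT rose by 1.26 ± 0.17 (limma adjusted p = 3.47e-06), although not in oxMYB72 (-0.1, adjusted p = 0.865), and GUT2 and IRX15, both of xylan synthesis, fell by 0.2 ± 0.06 (adjusted p = 0.012) and by 0.28 ± 0.07 (adjusted p = 0.00489). Of 4 measured factors of other families, STZ rose by 0.41 ± 0.09 on average (limma adjusted p = 0.00107), an average over genotypes with opposite signs. In this average 37.6% of all probe sets were called.

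Within groups, deviations of the 10 genes from their group means over 18 arrays had a median Pearson correlation of 0.04 over 45 pairs of genes, as a description of arrays that share RNA and hybridisation. The highest was that of WRKY47 with bHLH121 (0.71), and the lowest that of WRKY20 with WRKY42 (-0.59).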
